A study of Mus musculus with 2 samples.

Results

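The genes described here are 10 members of the Slit, Robo, netrin and Dcc families: the ligands Slit2, Slit3, Ntn1 and Ntn4 and the receptors Robo1, Robo2, Dcc, Unc5b, Unc5c and Unc5d. They are 10 of the 26033 genes in the deposited tables, and all 10 had counts in both libraries. They were picked by symbol, partly for their pattern across cell classes in these data, so their levels across classes are given as a description without a test. The nuclei were isolated, with no cell type selected, from the whole salivary gland of 20-day-old mice, and their RNA was counted as unique molecular identifiers (UMIs), each standing for 1 captured RNA molecule. The control library was from a gland labelled C56BL/6 Csf2+/-, which still carries 1 working copy of Csf2, and the null library from a gland labelled C56BL/6 Csf2-/-. Csf2 encodes the growth factor GM-CSF, and the study's title concerns macrophages of developing exocrine glands that depend on it. There was 1 library per genotype, so differences between genotypes are not replicated and are given without p-values. How many animals a library pooled is not given in the sources used here, and the control is a heterozygote, not a wild type.

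Slits are large secreted proteins that bind Robo receptors, and netrins are secreted, laminin-related proteins that bind Dcc, neogenin and the Unc5 receptors. Both systems were first known for steering growing axons: Slit through Robo repels, netrin through Dcc attracts, and netrin through Unc5 repels. Outside the nervous system they are known for work in blood vessels and branching epithelia, including adhesion between the inner and outer cell layers of mammary ducts and buds.

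The libraries held 68460 control and 74339 null barcodes with 76002888 and 75630815 UMIs, and 1367 barcode sequences occurred in both. After filtering, 59269 control and 41703 null barcodes fell in clusters rich in secretory transcripts, which were read as droplets of free RNA from broken cells, and 8671 and 13814 barcodes were taken as nuclei, with median UMI numbers of 2802 and 1979. Clustering without the members or their pathway genes gave 13 classes with at least 50 nuclei in each library. Classes are called "-like" after the marker list they matched, and levels are UMIs scaled to a class total of 1000000 (CPM), with 95% intervals that cover counting error only. Csf2 itself had 5 UMIs in the kept control barcodes and 0 in the null, too few to check the labels further. The free RNA differed between libraries: secretory genes made up 8.16% of it in control and 11.7% in null, and its median log2 ratio of null over control over 15751 genes was -0.29, against medians of -0.12 to -0.01 within the classes.

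Slit2 (ENSMUSG00000031558) was a luminal duct gene. In luminal duct-like nuclei it stood at 6174 CPM in control (16584 UMIs, interval 6080 to 6268) and 4810 CPM in null (10924 UMIs, 4720 to 4901). These nuclei, which also carried the epithelial sodium channel subunits Scnn1a and Scnn1b, held 71.0% of all Slit2 UMIs in nuclei. Nearly every one of them had a Slit2 UMI, 98.9% of 808 control and 98.5% of 1005 null nuclei, and after thinning each nucleus to 500 UMIs the shares were 84.7% and 82.3%. Free-RNA barcodes thinned the same way had a Slit2 UMI in 22.2% and 10.3%. The next class was myoepithelial or basal-like B at 1356 and 1078 CPM, and over both libraries the luminal level was 4.57 times that. Ionocyte-like duct nuclei followed with 601 and 372 CPM. Those 3 classes were the ones above free RNA (519 and 229 CPM) in both libraries with intervals apart. In 6 of the other 10 classes, among them the mucous acinar-like and vascular endothelial-like nuclei, Slit2 lay below free RNA in both. A further 16 control and 31 null nuclei, too few to compare, formed an unnamed cluster whose leading gene was Slit2 itself, at 4251 and 3021 CPM. Their median UMI numbers of 5874 and 3775 were the highest of any class.

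Slit2 and Slit3 share an intronic microRNA, and their promoters are shown because these genes marked different tissue layers, duct epithelium and fibroblast-like stroma. Sequences and positions are RefSeq's on GRCm38.p6, which is not the GRCm39 build of the counts, and each runs from 250 bases before to 50 after the start site. Capitals mark the TATA box letters TATAAA and the GC box letters GGGCGG, searched on both strands with overlaps allowed, so that CCGCCC is the GC box on the opposite strand. The Slit2 window is chr5:47982905-47983204 and the Slit3 window chr11:35121206-35121505, both on the plus strand.
Slit2 promoter: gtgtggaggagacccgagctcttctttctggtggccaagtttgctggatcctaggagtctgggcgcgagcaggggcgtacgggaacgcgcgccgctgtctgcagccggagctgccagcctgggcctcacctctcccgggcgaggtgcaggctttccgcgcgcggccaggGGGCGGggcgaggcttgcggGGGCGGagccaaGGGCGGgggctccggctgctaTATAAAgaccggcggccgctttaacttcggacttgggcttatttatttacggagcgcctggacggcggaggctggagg
Slit3 promoter: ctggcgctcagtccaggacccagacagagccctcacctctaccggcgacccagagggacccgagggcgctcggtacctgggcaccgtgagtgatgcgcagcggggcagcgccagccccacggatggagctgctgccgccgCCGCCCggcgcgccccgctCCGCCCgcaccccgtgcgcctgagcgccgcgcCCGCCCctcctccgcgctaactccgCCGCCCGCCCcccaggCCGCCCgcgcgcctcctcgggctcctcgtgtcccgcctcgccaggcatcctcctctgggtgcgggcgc
The Slit2 window held 3 GC boxes and a TATAAA starting at position -28 from the start site. The Slit3 window held 6 GC boxes, overlapping ones included, and no TATAAA. The search covered 9 promoters of 7 of the 10 genes, and no promoter of Dcc, Unc5d or Ntn1 was searched. Among the 7 genes, Slit2 was the 1 with TATAAA, and 4 (Slit2, Slit3, Unc5b and Ntn4) had a GC box. Over all 32851 RefSeq promoters counted, 13.6% held TATAAA and 35.7% the GC box, so the matches are common letters and not evidence of binding.

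Both Slit genes carry a copy of the same mature microRNA in an intron, on the host's strand and outside its annotated exons: chr5:48223966-48223986 in Slit2 and chr11:35616840-35616860 in Slit3. Its seed, bases 2 to 8, is in capitals.
mmu-miR-218-5p: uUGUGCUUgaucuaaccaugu
The libraries count polyadenylated RNA by gene, so the microRNA itself was not measured.

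Slit3 (ENSMUSG00000056427) was a stromal gene. Fibroblast-like A nuclei had 1414 CPM in control (5774 UMIs, 1377 to 1451) and 1633 CPM in null (7438 UMIs, 1596 to 1671), and held 86.9% of its UMIs in nuclei. A UMI was seen in 90.4% of 1125 control and 89.1% of 1645 null nuclei, and in 46.8% and 56.4% after thinning, against 2.70% and 1.79% of free-RNA barcodes. Myoepithelial or basal-like A nuclei, the group with the smooth muscle myosin Myh11, came next at 276 and 310 CPM, and vascular endothelial-like nuclei followed at 233 and 207 CPM. The intervals of those last 2 classes overlapped in control and lay apart in null, at 276 to 346 and 156 to 271 CPM. A small second fibroblast-like group led by Opcml, with 31 and 48 nuclei and so not compared, had 1882 and 1560 CPM.

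**Figure D1:**
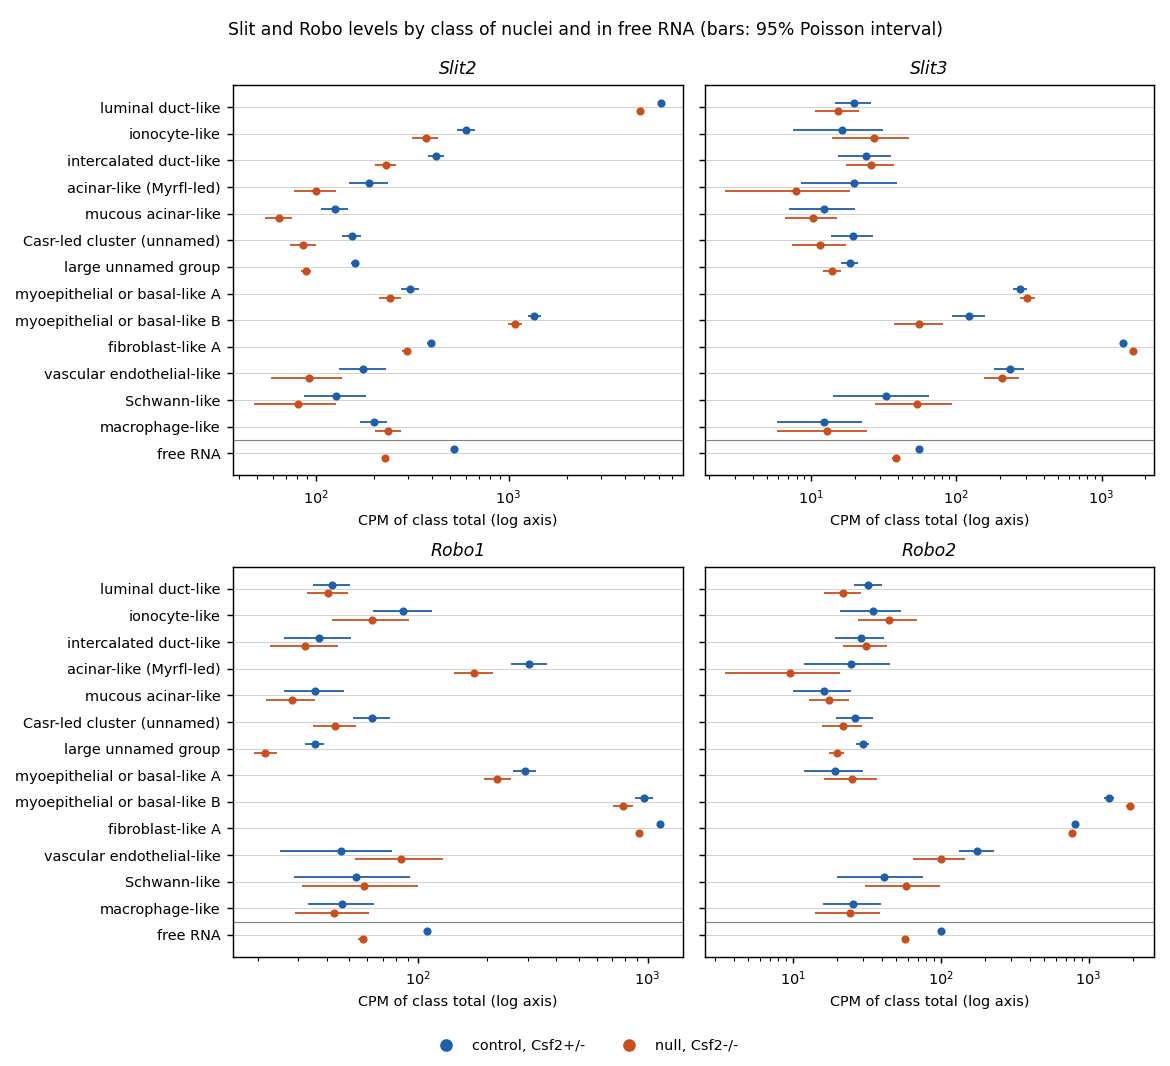
Level of Slit2, Slit3, Robo1 and Robo2 in CPM of the class total (log axis) in each of the 13 compared classes and in free RNA, control in blue and null in orange, with 95% Poisson intervals. Slit2 peaks in luminal duct-like nuclei at 6174 and 4810 CPM, Slit3 in fibroblast-like A nuclei, and both Robo genes in fibroblast-like A and myoepithelial or basal-like B nuclei.

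The receptors Robo1 and Robo2, which bind Slits through their outer immunoglobulin domains, were shared by the same 2 classes in opposite order. Robo1 (ENSMUSG00000022883) was at 1128 and 920 CPM in fibroblast-like A nuclei (4608 and 4191 UMIs) and at 965 and 780 CPM in myoepithelial or basal-like B nuclei (465 and 391 UMIs). Fibroblast-like A led in both libraries, with intervals of 1096 to 1161 against 880 to 1057 CPM in control and 893 to 949 against 705 to 862 CPM in null. Robo2 (ENSMUSG00000052516) was higher in myoepithelial or basal-like B nuclei, at 1366 CPM in control (658 UMIs, 1264 to 1475) and 1902 in null (953 UMIs, 1783 to 2027), than in fibroblast-like A nuclei at 807 and 768 CPM. The Robo genes parted elsewhere. Myoepithelial or basal-like A nuclei had Robo1 at 291 and 222 CPM, above its free RNA of 109 and 57.3 CPM, but Robo2 at 19.4 and 25.3 CPM, below its free RNA of 101 and 57.7 CPM. A small acinar-like class led by Myrfl also had Robo1 above free RNA, at 305 and 175 CPM, and Robo2 below it. Vascular endothelial-like nuclei had the reverse, with Robo2 at 177 and 99.9 CPM, above free RNA. Their Robo1 was at 45.9 CPM in control (25.1 to 77.02), below free RNA, and 84.5 CPM in null (52.97 to 128), not apart from it. The name of the Myrfl-led class is weak, with 5 of 19 acinar markers at least 2-fold up and 0 among its top 10 genes. Those 19 markers summed to 47210 and 57944 CPM in it, against 48117 and 64606 CPM in a large group that stayed unnamed. The Myrfl-led class shared a first-round cluster with the intercalated duct-like nuclei.

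Myoepithelial or basal-like B nuclei, 135 in control and 187 in null, need a reservation about their name. They were led by Lef1 and Edar and carried the basal markers Trp63 (336 and 232 CPM) and Lgr6 (251 and 202 CPM). The contractile and keratin markers of such cells were near 0 in them, with 7 and 9 UMIs of Acta2, 2 and 4 of Myh11, and 7 and 11 of Krt5. The 20 luminal duct markers summed to 12955 and 11872 CPM there, against 20813 and 15236 CPM in luminal duct-like nuclei, and Esrrg made up 10414 and 9703 CPM of it. They shared a first-round cluster with the luminal duct-like nuclei. Their Slit2 and Robo2 levels therefore stand beside a strong duct component, whose part in them was not tested.

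Ligand and receptor were often detected in the same nuclei, in classes where each gene singly was also common. In fibroblast-like A, 80.8% of control and 70.6% of null nuclei had UMIs of both Slit3 and Robo1, and 67.3% and 61.2% of both Slit3 and Robo2; after thinning these shares were 20.3% and 21.3%, and 13.8% and 19.1%. In myoepithelial or basal-like B, Slit2 and Robo1 were seen together in 59.3% and 40.6% of nuclei (16.3% and 9.63% thinned), and Robo1 with Robo2 in 41.5% and 41.2%. The last pair was at 14.8% and 12.3% after thinning. Slit2 and Robo2 were together in 37.04% and 38.5% of these nuclei, and in 9.63% and 9.09% after thinning. Counted singly, fibroblast-like A nuclei had Slit3 in 90.4% and 89.1%, Robo1 in 86.8% and 77.4%, and Robo2 in 72.4% and 66.7%. In myoepithelial or basal-like B, Slit2 was in 85.9% and 66.8%, Robo1 in 68.9% and 61.0%, and Robo2 in 45.2% and 56.7%. Whether the pairs met more often than these single shares alone would give was not tested. Free-RNA barcodes also carried these genes, Slit2 most often, and the part of free RNA in the shares was not tested.

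The fibroblast-like A class was not uniform. At a finer resolution nearly all of it fell into a main group led by Gabrb2 and Tll2 (814 control and 758 null nuclei), a group led by Ctnna3, Pdgfrb and Heyl (245 and 823) and a group led by Gabrg3 and Lingo2 (56 and 53). A small group, led by Fhod3 and Myh11, had 10 nuclei in each library, with Slit3 at 1211 and 1635 CPM, and 1 further null nucleus fell elsewhere. Leading genes were ranked against all nuclei outside the group, not against the other fibroblast-like groups. Over all its nuclei the Ctnna3 group had Pdgfrb at 89.8 and 191 CPM, against 138 and 202 CPM in the Gabrb2 group. Other counts here are over nuclei of the class alone. Slit3, Robo1 and Robo2 were highest in the Gabrb2 group: Slit3 at 1771 and 2324 CPM, Robo1 at 1456 and 1322, and Robo2 at 1024 and 1121. In the Ctnna3 group, where the null library had more of its nuclei, Slit3 was at 1044 and 1590 CPM and Robo1 at 816 and 875. The Gabrg3 group had less of each, with Slit3 at 379 and 179 CPM. It differed between libraries in other ways too. The neuronal gene Elavl4, among its top 10 genes, had 74 UMIs in control and 0 in null, and its few nuclei held 585067 and 855409 UMIs in all. All 31 and 48 nuclei of the second, Opcml-led fibroblast-like group were joined to the Gabrg3 group at this resolution. Over the whole class, the 16 pericyte or smooth muscle markers summed to 3683 and 2924 CPM with none at 0, and the 15 neuron markers to 53.4 and 12.96 CPM, with 3 at 0 in control and 8 in null. The pericyte list shares the gene Ebf1 with a list of 10 B or plasma cell markers, which summed to 3105 and 2436 CPM in this class. The part of Ebf1 in either sum was not counted, so the pericyte sum is not read as a pericyte share.

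**Figure D2:**
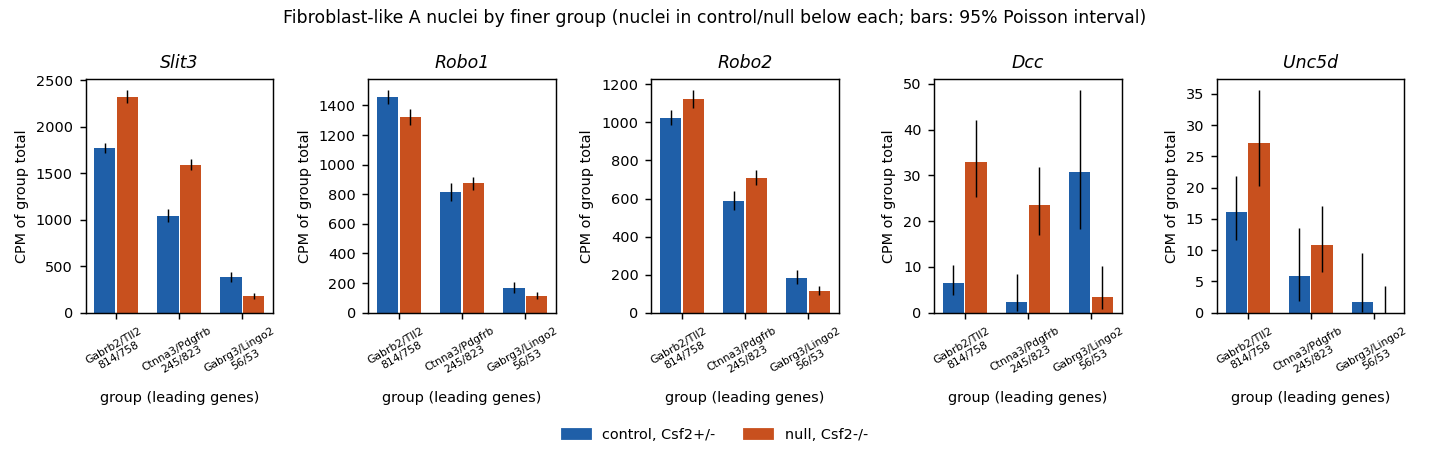
CPM of Slit3, Robo1, Robo2, Dcc and Unc5d in the fibroblast-like A nuclei of 3 finer groups, named by their leading genes with the number of nuclei in control and null, bars with 95% Poisson intervals. Slit3 is higher in null than in control in the Gabrb2 and Ctnna3 groups and lower in the Gabrg3 group, and Dcc is high in the Gabrg3 group in control and in the other 2 in null.

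Ntn1 and the receptor Unc5c met in 1 epithelial cluster that stayed unnamed. It held 633 control and 933 null nuclei and was led by Casr, Dcdc2a and Rasgrf1; it had the secretory transcript Smgc, submandibular gland protein C, at 43365 and 40312 CPM. Of 9 mucous acinar markers, 3 were at least 2-fold up, and 1 marker of another list stood among its top 10 genes, so it got no name. Unc5c (ENSMUSG00000059921) was at 1834 CPM in control (3474 UMIs, 1773 to 1896) and 1509 CPM in null (2982 UMIs, 1455 to 1564). Over both libraries that was 10.8 times the next of the 13 compared classes, myoepithelial or basal-like A at 172 and 137 CPM, and among them the Casr-led cluster was the 1 above free RNA (165 and 71.8 CPM) in both libraries. The Slit2-led cluster of 16 and 31 nuclei, too small to compare, had Unc5c at 497 and 463 CPM (52 and 55 UMIs) and Ntn1 at 210.2 and 337 CPM. In the Casr-led cluster a UMI of Unc5c was found in 94.5% and 87.0% of nuclei, 55.0% and 48.0% after thinning. Free-RNA barcodes had one in 7.55% and 3.36%. Unc5c itself ranked among the top 10 genes of the Casr-led cluster, although it took no part in the clustering.

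Ntn1 (ENSMUSG00000020902), the best-studied secreted netrin, was highest in the same nuclei, at 807 CPM in control (1529 UMIs, 767 to 849) and 602 CPM in null (1189 UMIs, 568 to 637). Unlike Unc5c it was also above free RNA (61.6 and 32.8 CPM) elsewhere. Vascular endothelial-like nuclei had 131 and 204 CPM, the large unnamed group of 4058 control and 6938 null nuclei had 171 and 125 CPM, and mucous acinar-like nuclei had 109 and 78.8 CPM. Endothelial-like and large-group levels overlapped in control and lay apart in null. The endothelial-like class may hold lymphatic nuclei too: the 8 lymphatic endothelial markers summed to 938 and 1425 CPM in it with none at 0. The 16 vascular markers summed to 12538 and 11502 CPM, and the lymphatic marker Flt4 was among its top 10 genes. The lymphatic part in the levels and ratios of this class was not tested. The large group was joined from 3 unnamed clusters of 1 first-round cluster, and these followed the libraries: 3341 control and 545 null nuclei in 1 of them, 307 and 2878 in the second, and 410 and 3515 in the third. Ntn1 and Unc5c occurred together in 80.3% of control and 57.9% of null nuclei of the Casr-led cluster, and in 18.8% and 10.8% after thinning. Counted singly, Ntn1 was in 84.2% and 64.2% of these nuclei and Unc5c in 94.5% and 87.0%.

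The other 4 members were low, with 157 to 579 UMIs over all nuclei. Ntn4 (ENSMUSG00000020019), a netrin that binds laminins of the basement membrane, was highest in Schwann-like nuclei at 74.5 CPM (18 UMIs, 44.1 to 118) and 98.7 CPM (22 UMIs, 61.9 to 149). Mucous acinar-like nuclei had 37.8 and 47.9 CPM, with intervals of 28.0 to 49.9 and 39.5 to 57.4 CPM: they overlapped those of the Schwann-like nuclei in control but not in null. The Casr-led cluster, fibroblast-like A and myoepithelial or basal-like A nuclei were also above free RNA (5.07 and 4.93 CPM) for Ntn4. Unc5b (ENSMUSG00000020099), known as an endothelial netrin receptor, was at 55.7 CPM (17 UMIs, 32.5 to 89.2) and 69.2 CPM (18 UMIs, 41.0 to 109) in vascular endothelial-like nuclei. Mucous acinar-like nuclei had 35.5 CPM (46 UMIs, 26.0 to 47.3) and 28.9 CPM (70 UMIs, 22.5 to 36.5), which overlapped the endothelial interval in control and not in null. Fibroblast-like A nuclei had 9.79 and 9.004 CPM, still above free RNA at 2.46 and 2.12 CPM.

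Dcc (ENSMUSG00000060534), the attractive netrin receptor, was the 1 member whose leading class differed between libraries. In control it was highest in the Casr-led cluster, at 19.5 CPM (37 UMIs, 13.7 to 26.9), with 9.06 CPM (37 UMIs, 6.38 to 12.5) in fibroblast-like A nuclei. In null the order turned, with 9.62 CPM (19 UMIs, 5.79 to 15.0) and 23.5 CPM (107 UMIs, 19.3 to 28.4). Few nuclei had any: 3.002% and 1.39% in the Casr-led cluster and 1.33% and 2.25% in fibroblast-like A, against 0.201% and 0.132% of free-RNA barcodes. Of the 37 control UMIs in the fibroblast-like class, 18 were in nuclei of the Gabrg3 group (30.8 CPM), 17 in the Gabrb2 group (6.54 CPM) and 2 in the Ctnna3 group. Of the 107 null UMIs, 63 were in the Gabrb2 group (32.9 CPM), 41 in the Ctnna3 group (23.5 CPM) and 3 in the Gabrg3 group. Unc5d (ENSMUSG00000063626), a further Unc5 receptor, was highest in fibroblast-like A nuclei among the compared classes, at 11.8 CPM (48 UMIs) and 15.6 CPM (71 UMIs). Of the compared classes it was the 1 above free RNA in both libraries, and it held 75.8% of the Unc5d UMIs in nuclei.

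**Figure D3:**
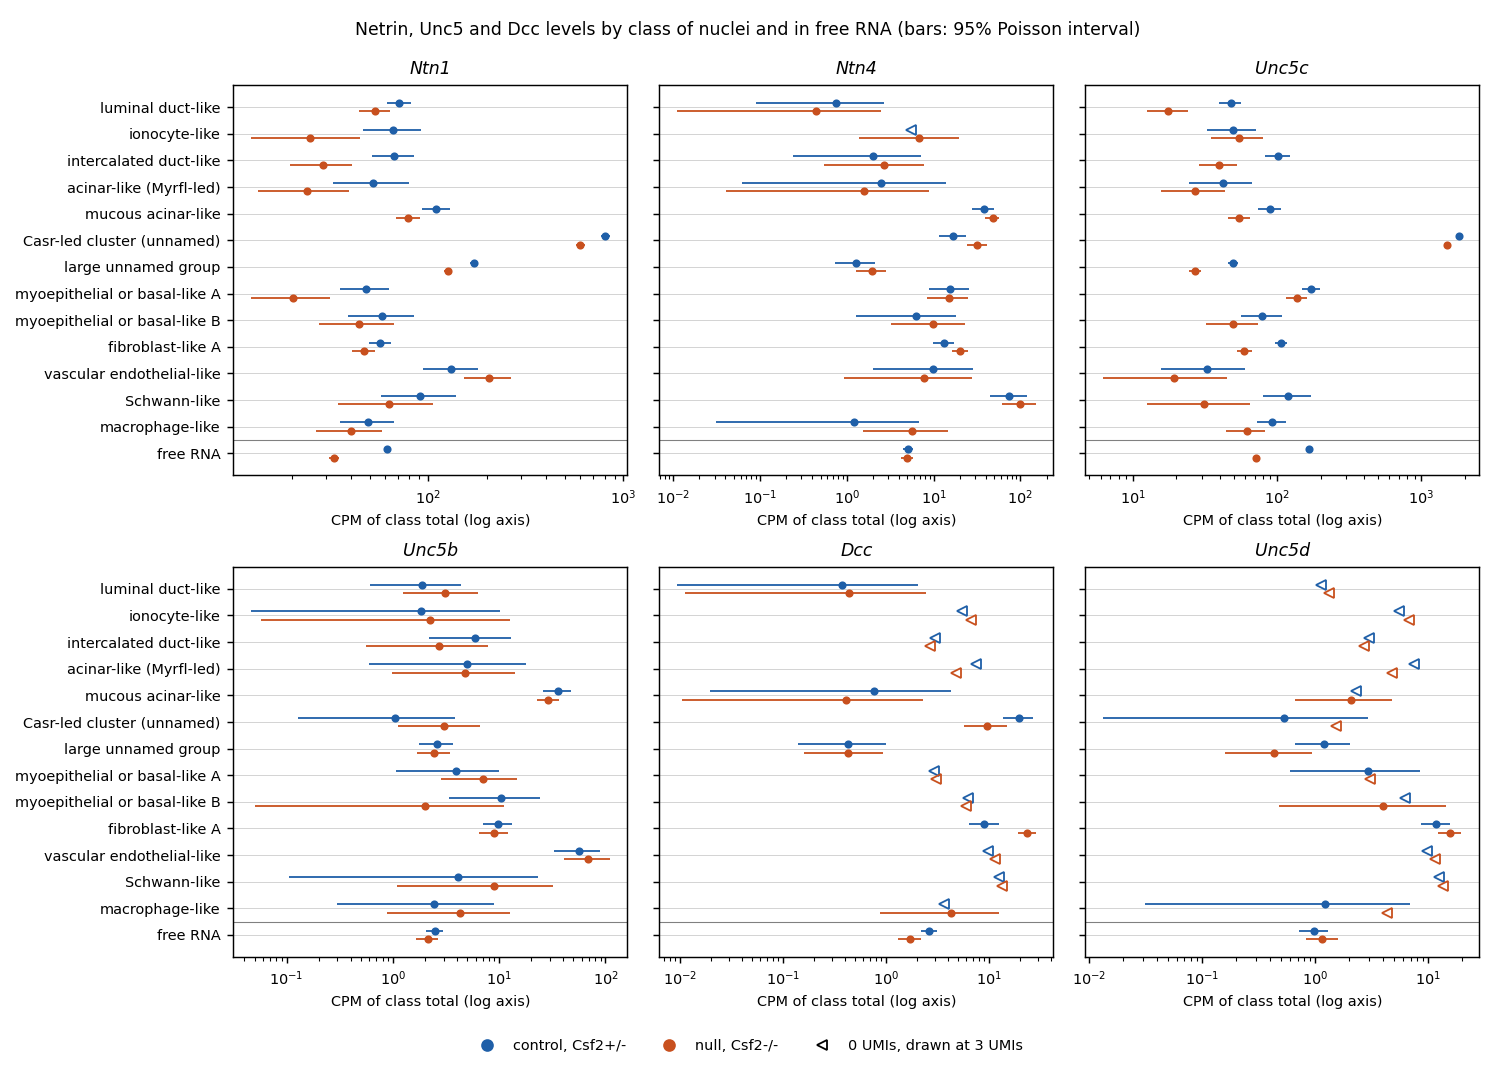
Level of Ntn1, Ntn4, Unc5c, Unc5b, Dcc and Unc5d in CPM of the class total (log axis) by class and in free RNA, control in blue and null in orange, with 95% Poisson intervals; open triangles mark classes with 0 UMIs, drawn at the level of 3 UMIs. Unc5c and Ntn1 peak together in the Casr-led cluster, and Dcc is split between that cluster and fibroblast-like A nuclei.

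Macrophage-like nuclei, the class the study is about, showed little of the 10 members. None of them was above free RNA there in both libraries with intervals apart. Slit2 had 200 and 239 CPM, against 519 and 229 CPM in free RNA, and Robo1, Unc5c and Ntn1 lay between 40.02 and 92.03 CPM. All 16 macrophage markers were detected in these 318 control and 345 null nuclei. A Slit gene outside the 10, Slit1, was led by this class, at 44.2 and 38.6 CPM (36 and 27 UMIs) and 27.9 times the next class over both libraries, and stood among the top 10 genes of its cluster.

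**Figure D4:**
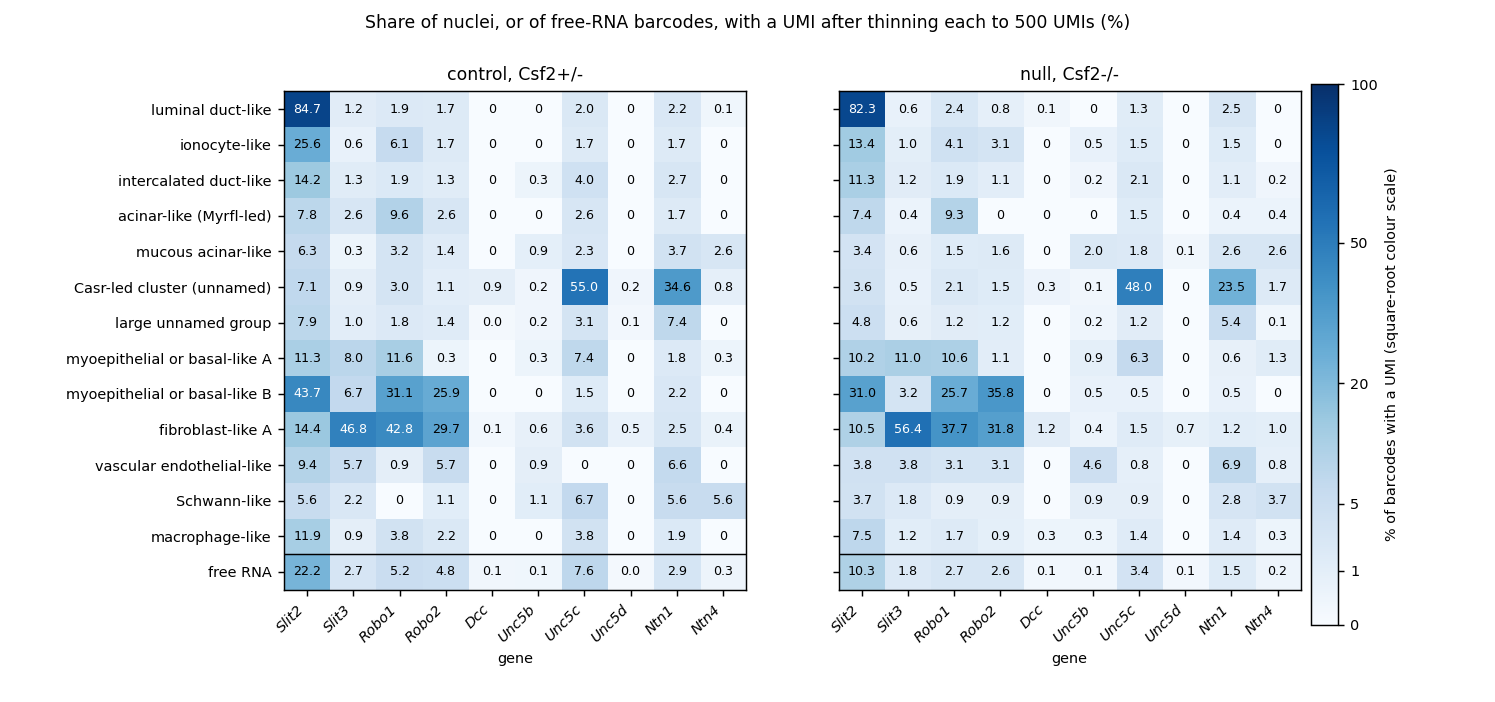
Share of nuclei in each class, and of free-RNA barcodes, with at least 1 UMI of each member after thinning every barcode to 500 UMIs, control left and null right. High cells include Slit2 in luminal duct-like nuclei (84.7% and 82.3%), Unc5c and Ntn1 in the Casr-led cluster, and Slit3, Robo1 and Robo2 in fibroblast-like A nuclei. Myoepithelial or basal-like B nuclei also carried Slit2, Robo1 and Robo2 after thinning, with Robo1 and Robo2 together in 14.8% and 12.3% of them.

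Of the 10 members, 9 had the same leading class in both libraries, where 49.1% of 11829 genes with at least 200 UMIs did. Slit2, Slit3, Unc5c, Unc5d and Ntn1 also stood at least 2-fold above the next class in both libraries, as 8.83% of those genes did; Unc5d had fewer than 200 UMIs. The members were chosen with such levels known, so nothing is read from these shares.

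Between genotypes the strongly expressed members differed little in their leading classes. The log2 ratio of null over control was -0.36 for Slit2 in luminal duct-like nuclei (95% interval -0.40 to -0.33, counting error only), -0.28 for Unc5c (-0.35 to -0.21) and -0.42 for Ntn1 (-0.53 to -0.31) in the Casr-led cluster, and -0.29 for Robo1 (-0.35 to -0.23) in fibroblast-like A. Slit3 was higher in null, at 0.21 (0.16 to 0.26) in fibroblast-like A, as was Robo2 at 0.48 (0.33 to 0.62) in myoepithelial or basal-like B. The 658 and 953 Robo2 UMIs there lay in 45.2% of 135 control and 56.7% of 187 null nuclei. The intervals treat UMIs as independent and do not cover spread between nuclei. None of these 6 members was past 1.5-fold. Of 13261 genes with at least 100 UMIs over all nuclei, 10.4% were past that fold higher in their leading class and 14.3% lower. That minimum admits genes with few UMIs in the class itself. Among genes with at least 200 UMIs in the class, the leading classes of these 6 members had smaller shares past the fold. They ran from 2.0% to 3.55% higher and from 2.18% to 3.15% lower. The finer fibroblast groups gave 0.39 (0.33 to 0.45) and 0.61 (0.50 to 0.72) for Slit3 in the Gabrb2 and Ctnna3 groups but -1.09 (-1.39 to -0.78) in the Gabrg3 group, whose libraries also differed in Elavl4, and -0.14 (-0.21 to -0.07) and 0.10 (-0.03 to 0.23) for Robo1 in the first 2. Robo2 was at -0.07 (-0.14 to -0.002) over the whole fibroblast-like A class. By group it was at 0.13 (0.05 to 0.21) in the Gabrb2, 0.27 (0.12 to 0.42) in the Ctnna3 and -0.69 (-1.10 to -0.28) in the Gabrg3 group. Of the low members, Unc5b at 0.31 (-0.73 to 1.36), Unc5d at 0.41 (-0.14 to 0.97) and Ntn4 at 0.41 (-0.56 to 1.39) had intervals that included 0. Dcc was the 1 member past 1.5-fold in its leading class, at 1.38 (0.82 to 1.96) in fibroblast-like A, which led over both libraries together. The finer groups went both ways, at 2.33 (1.54 to 3.20) in the Gabrb2, 3.33 (1.39 to 6.43) in the Ctnna3 and -3.13 (-5.54 to -1.36) in the Gabrg3 group. In the Casr-led cluster, which led in control, Dcc was at -1.02 (-1.90 to -0.19). Its UMIs in fibroblast-like A lay in 1.33% and 2.25% of nuclei, and spread between nuclei is not in the intervals.

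Over all classes, 88 of 130 pairs of member and class had at least 20 UMIs. Of these, 8 were past 1.5-fold higher in null and 27 lower, and the median log2 ratio was -0.34. Among all pairs of gene and class with the same minimum, 9.17% were past that fold higher and 9.88% lower, so the share higher was near this background (9.09%) and the share lower above it (30.7%). Intervals lay above 0 for 6 pairs, below it for 42 and across it for 40; over all pairs of gene and class they lay above 0 in 7.64% and below it in 12.6%. The ratio itself was below 0 in 55.6% of all pairs. For Slit2 it was below 0 in 12 of 13 classes, in 11 with the interval below 0, and the macrophage-like nuclei were at 0.25 (-0.07 to 0.58). The 163 and 167 Slit2 UMIs of macrophage-like nuclei lay in 34.6% of control and 19.4% of null nuclei, whose median UMI numbers were 2228 and 1772. Ntn1 was below 0 in 12 of 13 classes, in 8 by its interval, Unc5c in 11 of 12, in 9 by its interval, and Robo1 in 11 of 13, in 6 by its interval. Robo2 was split, with 6 classes above 0 and 6 below. Ntn4 was above 0 in 5 of 6 classes, in 2 with the interval above 0, and past 1.5-fold in fibroblast-like A at 0.63 (0.13 to 1.14), in the Casr-led cluster at 0.92 (0.28 to 1.58) and in the large unnamed group at 0.59 (-0.37 to 1.61).

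Free RNA itself differed in the same direction. There the log2 ratio was -1.18 (-1.22 to -1.14) for Slit2, -1.20 for Unc5c, -0.93 for Robo1, -0.91 for Ntn1, -0.81 for Robo2 and -0.54 for Slit3, while Ntn4 was at -0.04 (-0.33 to 0.25). Over all genes in free RNA, 23.0% were past 1.5-fold lower and 5.07% higher. In the 59 pairs whose class was not above free RNA in both libraries, 23 were past 1.5-fold lower and 4 higher, with a median of -0.42. In the 29 pairs whose class was above it, 4 were lower and 4 higher, with a median of -0.17. The same split was not made over all genes, so these counts are not read as particular to the members. The part of free RNA in the ratios was not tested beyond this split and the subtraction given at the end. The 4 lower were Robo1 in the Myrfl-led acinar-like class at -0.80, Slit2 in ionocyte-like nuclei at -0.69, Robo2 in vascular endothelial-like nuclei at -0.83 and Dcc in the Casr-led cluster at -1.02.

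**Figure D5:**
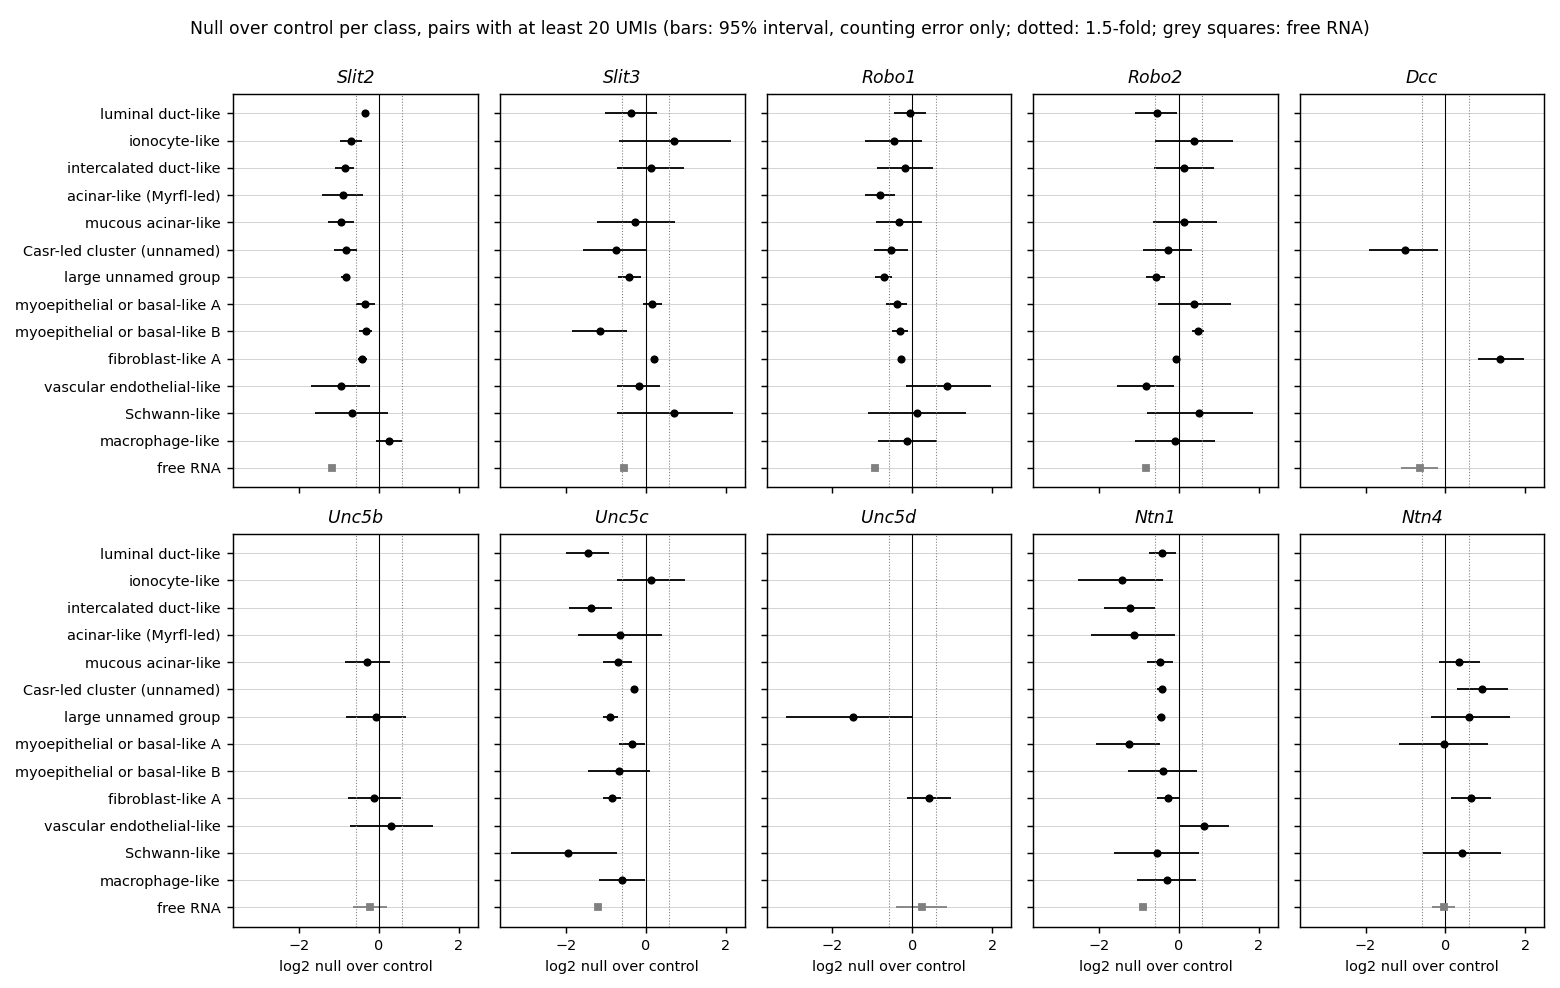
The log2 ratio of null over control for each member in every class with at least 20 UMIs (black points) and in free RNA (grey squares), with 95% intervals for counting error only and dotted lines at 1.5-fold. Leading classes of the abundant members lie close to 0, at -0.42 to 0.48, and Slit2 and Unc5c lie further below 0 in most classes where their level is near or below that of free RNA.

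The rest of the pathway was taken from lists of 12 other ligands, 14 other receptors and co-receptors and 30 intracellular effectors, all present in the tables. Of the ligands, 9 had at least 100 UMIs in nuclei and 6 of these kept 1 leading class in both libraries, where 48.6% of all genes with that minimum did. Leading means the highest level over both libraries together. Ntng1 and Ntng2, which encode the glycosylphosphatidylinositol-anchored netrin-G proteins, were highest in myoepithelial or basal-like A nuclei, at 1294 and 1219 CPM and at 53.5 and 73.8 CPM. The repulsive guidance molecules, which bind neogenin, were led by fibroblast-like A nuclei for Rgma (110 and 115 CPM) and by Schwann-like nuclei for Rgmb (236 and 269 CPM). The Flrt proteins, adhesion molecules that can bind Unc5 receptors, were led by Schwann-like nuclei for Flrt1 (91.0 and 89.7 CPM) and Flrt3 (66.2 and 53.8 CPM). Flrt2 was at 207 CPM in both fibroblast-like A and vascular endothelial-like nuclei in control, and the latter led in null at 146 CPM. Ntn3 and Nell2, a Robo3 ligand, were highest over both libraries in ionocyte-like nuclei, at 12.8 and 9.02 CPM and at 23.8 and 45.1 CPM, but Schwann-like nuclei led for Ntn3 in null (13.5 CPM, 3 UMIs) and for Nell2 in control (24.8 CPM, 6 UMIs). Nell2 was the 1 ligand of 9 past 1.5-fold in its leading class, at log2 0.92 with an interval of -0.16 to 2.05 from 13 and 20 UMIs. Over all genes with that minimum, 10.4% were past the fold higher and 14.3% lower. Slit1, below the minimum and named after its values were seen, had 36 and 27 of its 76 nuclear UMIs in macrophage-like nuclei. Ntn5 and Draxin had 1 UMI each.

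Of the other receptors, 11 had at least 100 UMIs and 8 kept 1 leading class, beside the 48.6% over all genes. Neo1, which encodes neogenin, the other receptor of the Dcc family, was spread widely, with myoepithelial or basal-like A nuclei at 215 and 198 CPM only 1.02 times the next class, myoepithelial or basal-like B, which led in null at 199.6 CPM. Unc5a was led by mucous acinar-like nuclei at 44.7 and 31.4 CPM. Dscaml1 was led by ionocyte-like nuclei at 297 and 185 CPM, and Dscam, a netrin-binding adhesion receptor, by myoepithelial or basal-like B nuclei at 27.0 and 7.98 CPM (13 and 4 UMIs), though macrophage-like nuclei led in null at 18.6 CPM (13 UMIs). These 2 of 11 were past 1.5-fold lower in null in the class leading over both libraries, at -0.68 (-1.09 to -0.29) and -1.76 (-3.83 to -0.06). Among all genes with at least 100 UMIs, 14.3% were past that fold lower and 10.4% higher, so nothing is read from this count. The latrophilins, which bind Flrt proteins, were led by fibroblast-like A (Adgrl1, 89.1 and 59.5 CPM), vascular endothelial-like (Adgrl2, 826 and 611 CPM) and Myrfl-led acinar-like nuclei (Adgrl3, 854 and 862 CPM). Lrig3 was highest in myoepithelial or basal-like B nuclei at 197 and 214 CPM. Lrig1 was there at 378 and 291 CPM, but fibroblast-like A nuclei led in control at 410.1 CPM. Lrig2 was highest in myoepithelial or basal-like A at 97.4 and 95.1 CPM. Dag1, dystroglycan, was led by the Myrfl-led acinar-like class at 191 and 199 CPM. Robo4, the endothelial Robo, had 74 nuclear UMIs and was named after its values were seen: vascular endothelial-like nuclei held 32 and 14 of them, at 105 and 53.8 CPM (log2 -0.96). Robo3 and Gpc1 had 25 and 57 UMIs.

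Effectors were broad. Of the 28 with at least 100 UMIs, 18 kept 1 leading class, beside the 48.6% over all genes. In the class leading over both libraries, 2 were past 1.5-fold lower in null (Srgap1 at -0.73 and Maged1 at -0.59) and 0 higher, against the 14.3% and 10.4% over all genes. The median over the list was -0.17, and -0.09 over all genes. The 5 whose leading class stood furthest above the next were Pak1 (2.05 times, macrophage-like), Enah (1.91 times, ionocyte-like), Srgap2 (1.84 times, macrophage-like), Arhgap39 (1.54 times, Schwann-like) and Fyn (1.53 times, vascular endothelial-like). Srgap2 and Arhgap39 encode GTPase-activating proteins that bind Robo receptors, and Enah encodes an actin regulator of the Ena/VASP family. Trim9 is left out of this order because it had 6 UMIs.

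Each member's pattern was also set against every other gene with at least 200 nuclear UMIs, as Pearson's r of log2(CPM + 10) over the 26 points of 13 classes in 2 libraries. The points share libraries and free RNA, so r is a description only. Closest to Slit2 were Clip4, Erbin and Uhrf1bp1l, each at 0.92. Closest to Slit3 were Pcdh7 (0.97), Sned1 (0.94) and Tmem132c (0.93), and to Robo2 Pcdh19 (0.96), Cacna1g (0.91) and Smoc2 (0.90). Robo1 was closest to Fbln1 (0.88), Sh3rf3 (0.84) and Rhbdl3 (0.83). Unc5c was closest to Col11a1 (0.93), Slc6a15 (0.91) and Cdkn1c (0.91), and Ntn1, its partner in the Casr-led cluster, to Etnk1 (0.83), Gramd1a (0.82) and Gucy2c (0.81). Among the low members, Unc5b was closest to Nxpe4 (0.91), Ntn4 to Armh4 (0.86) and Dcc to Fbxw8 (0.83). Unc5d had too few UMIs to be ranked.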

How the data were processed

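The authors deposited unnormalized UMI counts for 2 single-nucleus libraries. Per the file headers the software was Cell Ranger 7.0.0, and GRCm39 is the build in the submitters' processing notes. Annotation and use of intronic reads are not given in the sources used here. Barcodes with at least 500 UMIs, 300 genes and under 5% mitochondrial UMIs were clustered in 2 rounds (Scanpy 1.11.5, igraph 0.11.9, scikit-learn 1.9.0: 2000 variable genes, 30 components, 20 neighbours, Leiden resolution 1.0). The first set aside free-RNA clusters, whose UMI share of 8 secretory genes was at least 0.75 times that of barcodes under 1000 UMIs. A cluster was named where 3 or more markers were at least 2-fold up with at least 10 UMIs. After clusters had been seen, same-named ones were kept apart, unnamed ones of 1 first-round cluster were joined, and unnamed classes were allowed to lead, where the plan had named classes only. Scrublet marked 0.0346% and 0.0579% of nuclei and was taken as not having worked, so doublets were not removed.

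CPM, exact Poisson, binomial and conditional binomial 95% intervals came from SciPy 1.17.1 and NumPy 2.4.6. The interval code was tested on simulated counts. Members, classes of 50 or more nuclei per library and the pathway genes with at least 100 UMIs were named, with 5 effectors and the 3 genes most like each member. Members and lists were chosen with earlier results of these data known. Other filters, clusterings, scalings and a free-RNA subtraction were tried.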

Additional observations from a re-analysis of the deposited data

Results flagged for a closer look

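For 4 members the log2 ratio of null over control had a counting interval above 0 in 1 class and below 0 in another, and the difference between the classes was not tested. Slit3 was at 0.21 in fibroblast-like A and -1.13 in myoepithelial or basal-like B nuclei, the latter from 59 and 28 UMIs. Robo2 was at 0.48 in myoepithelial or basal-like B and -0.83 in vascular endothelial-like nuclei, the latter from 54 and 26 UMIs. Dcc was at 1.38 in fibroblast-like A and -1.02 in the Casr-led cluster. Ntn1 was at 0.63 in vascular endothelial-like nuclei (40 and 53 UMIs) and -1.41 in ionocyte-like nuclei (36 and 11 UMIs).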

How the results depend on the processing

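The count of 9 of 10 members with the same leading class in both libraries held under every alternative run for it. For the log2 ratio in the leading class, a finer second clustering (resolution 2.0) gave 0.39 for Slit3, -0.14 for Robo1 and 2.33 for Dcc. With 4000 variable genes Slit3 was 0.31 and Dcc 2.37, with the members kept among the variable genes Slit3 was 0.32, Robo1 -0.21 and Dcc 2.39, and with at least 1000 UMIs Slit3 was 0.30, Robo1 -0.21 and Dcc 2.38. Scaling without the 100 most abundant free-RNA genes gave -0.27 for Slit2, 0.29 for Slit3, -0.22 for Robo1 and -0.20 for Unc5c, and subtracting free RNA gave -0.24 for Slit2. With first-round clusters alone Robo2 was led by fibroblast-like nuclei and turned to -0.048. Under 1% mitochondrial UMIs Slit2 was -0.40, Slit3 0.32, Robo1 -0.22 and Dcc 2.38, while the Casr-led cluster was set aside as free RNA because its secretory share of 7.17% passed the limit of 7.15% (7.14% against 7.35% otherwise). Ntn1 was then led by vascular endothelial-like nuclei at 0.78 and Unc5c by myoepithelial or basal-like A at -0.35; in the cluster set aside they were at -0.41 and -0.25. The 8 higher pairs became 5 of 63 with first-round clusters alone, 5 of 89 without the 5% of nuclei with the highest doublet scores (chosen after seeing the data), 5 of 40 with free RNA subtracted, where the 27 lower became 7, and 19 of 117 with no UMI minimum. Of 216 levels recomputed, 127 stayed within their counting interval. No paired analysis was possible because each genotype had 1 library. Dcc, Unc5b, Unc5d and Ntn4 had at most 144 UMIs in their leading class, so only large ratios could be told from counting error.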
